A study of Arabidopsis thaliana with 6 samples.

Results

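The 10 genes described here encode the nuclear part of Rubisco and 6 further proteins of the Calvin cycle in *Arabidopsis thaliana*. Their choice from the 33610 genes in the count data was by gene identifier, with no threshold on counts but with earlier results of these data known. They are the Rubisco small subunit genes *RBCS1A* (AT1G67090), *RBCS1B* (AT5G38430), *RBCS2B* (AT5G38420) and *RBCS3B* (AT5G38410), and the genes of Rubisco activase *RCA* (AT2G39730), phosphoribulokinase *PRK* (AT1G32060), the plastid glyceraldehyde-3-phosphate dehydrogenase subunits *GAPA* (AT3G26650) and *GAPB* (AT1G42970), sedoheptulose bisphosphatase *SBPASE* (AT3G55800) and plastid fructose bisphosphatase *CFBP1* (AT3G54050). RNA-seq was made from inflorescence meristems and the young buds on them, with stages 10 to 11 as the oldest, and the counts of 6 libraries, 2 per genotype, were available. All 3 genotypes carry the *sep1* and *sep2* mutations: *sep1 sep2* keeps *SEP3*, *sep1 sep2 sep3* also carries a *sep3* mutation, and 2 independent lines of the triple mutant expressing *SEP3*, called the *SEP3* lines below, gave a library each, where the promoter that drives *SEP3* is not given in the sources used here. The *sep1 sep2* and *sep1 sep2 sep3* libraries are named only as replicates, with nothing to say whether they came from separate plants. A single fit pooled the spread within the 3 genotypes, that between the 2 *SEP3* lines included, so p-values measure this pooled spread. Part of it may be technical. Wild type was not analysed here.

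Rubisco joins carbon dioxide to ribulose bisphosphate in the chloroplast stroma. Its large subunit is encoded in the plastid and its small subunit by the nuclear *RBCS* family, and the enzyme needs the ATPase Rubisco activase to clear its active site of bound sugar phosphates. The rest of the cycle reduces the product to triose phosphate with glyceraldehyde-3-phosphate dehydrogenase and rebuilds the acceptor, with fructose and sedoheptulose bisphosphatase and phosphoribulokinase at steps that light switches on through thioredoxin and the small protein CP12. These genes are most active in green tissue, which in an inflorescence means sepals, young carpels and stems, and their transcription follows light, the circadian clock and sugar supply. SEP3 is a MADS domain transcription factor that forms complexes with other MADS proteins to set the identity of floral organs.

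Counts per library summed to between 24000063 and 31263376, and the test covered the 25458 genes that any library had a count for. CPM below stands for normalised read counts scaled to a common library size after TMM normalization, whose factors lay between 0.963 and 1.04, and each log2 fold change comes from one edgeR fit of all 6 libraries, tested with edgeR's quasi-likelihood test and adjusted by Benjamini-Hochberg over all genes tested (FDR). DE genes have an FDR under 0.05 and a log2 fold change above 1 or below -1. The *SEP3* gene had 130.4 and 136 CPM in *sep1 sep2*, 149.5 and 151 in the pair labelled *sep1 sep2 sep3* and 489 and 332 in the *SEP3* lines, so its counts do not tell the pair labelled *sep1 sep2 sep3* from *sep1 sep2*, and every direction below that involves this pair rests on the labels. All genes of the plastid and mitochondrial genomes are listed at 0 in all 6 libraries, among them *RBCL*, the gene of the Rubisco large subunit, which is therefore not measured here. In inflorescence RNA, fewer green cells and less of these transcripts per cell cannot be told apart.

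The small subunit genes are near copies of each other, which bears on how far their counts can be separated. In the TAIR10.1 annotation *RBCS1A* lies alone on chromosome 1 (chr1:25048158-25049667, minus strand). *RBCS3B*, *RBCS2B* and *RBCS1B* follow each other within 8333 bases of chromosome 5, at chr5:15376988-15378642, chr5:15380907-15382071 and chr5:15383167-15385320, all on the minus strand. Their coding sequences are 96.7 to 97.3% identical within the chromosome 5 group and 90.4 to 90.6% identical between that group and *RBCS1A*. The stretch of 60 coding bases with the most differences, bases 20 to 79 of each coding sequence, is shown to let the copies be compared, with capitals at the 16 positions where the 4 genes do not all have the same base:
*RBCS1A*: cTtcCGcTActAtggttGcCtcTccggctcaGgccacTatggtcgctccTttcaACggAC
*RBCS1B*: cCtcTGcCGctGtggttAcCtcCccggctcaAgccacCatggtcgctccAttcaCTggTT
*RBCS2B*: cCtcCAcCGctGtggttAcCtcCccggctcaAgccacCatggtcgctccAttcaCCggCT
*RBCS3B*: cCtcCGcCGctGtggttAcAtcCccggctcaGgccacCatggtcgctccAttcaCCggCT
In this stretch 6 positions differ among the 3 genes of chromosome 5. The authors discarded reads with several mapping positions. Of all windows of 150 bases, the read length, 0% of the *RBCS1A* and *RBCS2B* transcripts, 4.81% of the *RBCS1B* transcript and 7.92% of the *RBCS3B* transcript occur exactly in another *RBCS* gene, so most of each gene can be counted uniquely, while the levels of *RBCS1B* and *RBCS3B* may be somewhat understated.

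*RBCS1A*, the main small subunit gene of Arabidopsis, was the most abundant of the 10 in every library. Its CPM was 6456 and 6323 in *sep1 sep2*, 6781 and 7504 in the pair labelled *sep1 sep2 sep3* and 4828 and 4172 in the *SEP3* lines, that is, between 0.431 and 0.723% of all counts on genes. It was the gene with the most counts of all in 3 libraries, both *SEP3* lines and replicate 2 labelled *sep1 sep2 sep3*, and second in the other 3. Both *SEP3* lines lay below all 4 other libraries. The mean fell from 7143 ± 511 CPM (SD, n = 2) in the pair labelled *sep1 sep2 sep3* to 4500.2 ± 463 CPM (SD, n = 2) in the *SEP3* lines, which is 0.630 of the former level (log2 fold change -0.67, SE 0.12, FDR 0.00217). It was 6389 ± 93.4 CPM in *sep1 sep2*, and the *SEP3* lines were lower than that too (log2 fold change -0.51, SE 0.12, FDR 0.0358).

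*RBCS2B* had the largest ratio between its highest and lowest library among the 10 genes, with a CPM of 532 and 485 in *sep1 sep2*, 601 and 801 in the pair labelled *sep1 sep2 sep3* and 380.4 and 228 in the *SEP3* lines. Replicate 2 labelled *sep1 sep2 sep3* stood highest and *SEP3* line 2 lowest, and the 3 genotypes did not overlap. In the *SEP3* lines it fell to 0.434 of the level in the pair labelled *sep1 sep2 sep3* (log2 fold change -1.20, SE 0.19, FDR 6.25e-04), and it was the only DE member in any comparison. With 1 library left out at a time it was not DE without replicate 2 labelled *sep1 sep2 sep3* or without line 2, where its log2 fold change was -0.98 and -0.88. Line 2 had 0.601 of the CPM of line 1, the largest difference between 2 libraries of a genotype among the 10 genes.

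*RBCS3B*, the other abundant member of the chromosome 5 group, had a CPM of 1916 and 1819 in *sep1 sep2*, 1866 and 2422 in the pair labelled *sep1 sep2 sep3* and 1525 and 1186 in the *SEP3* lines. The *SEP3* lines were again below the other libraries, while replicate 1 labelled *sep1 sep2 sep3* lay between the *sep1 sep2* replicates. Its level in the *SEP3* lines was 0.632 of that in the pair labelled *sep1 sep2 sep3* (log2 fold change -0.66, SE 0.15, FDR 0.00742). *RBCS1B*, the least abundant of the family, had 359.6 and 328 CPM in *sep1 sep2*, 284 and 327 in the pair labelled *sep1 sep2 sep3* and 208 and 175 in the *SEP3* lines. It was the one member highest in *sep1 sep2*: replicate 2 labelled *sep1 sep2 sep3* nearly equalled the lower *sep1 sep2* library, and the fold change between these genotypes did not pass the test (log2 fold change -0.17, SE 0.12, FDR 0.415). Relative to *sep1 sep2* it fell further in the *SEP3* lines than any other of the 10 genes did, to 0.555 of the level (log2 fold change -0.85, SE 0.12, FDR 0.00128), and it was the one member called in that comparison under all 14 alternative settings.

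**Figure D1:**
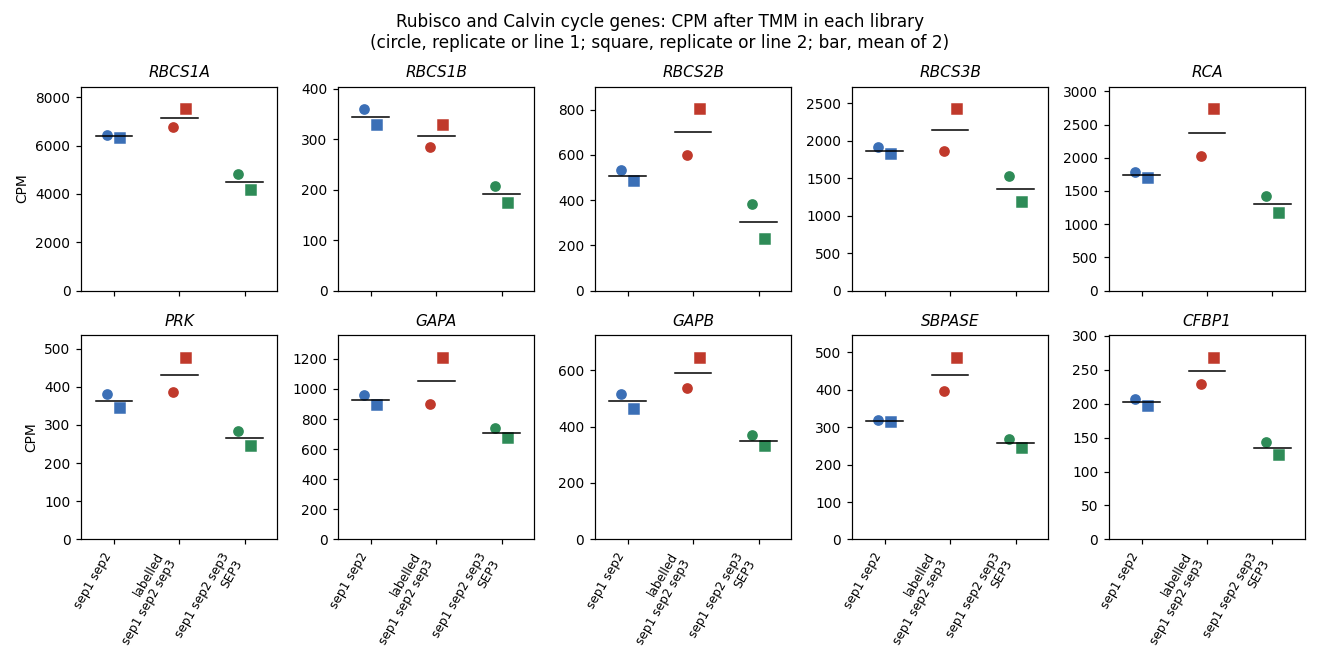
CPM of the 10 genes in each of the 6 libraries (vertical axes from 0, a scale per gene; circles, replicate or line 1; squares, replicate or line 2; bars, mean of 2), by genotype. For each gene the *SEP3* lines are the lowest 2 libraries, from 4828 and 4172 CPM for *RBCS1A* to 144 and 124 CPM for *CFBP1*.

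Within the family the shares of *RBCS1A* and *RBCS3B* moved less, in proportion, than that of *RBCS2B*. Divided by exon length and expressed as a share of the summed *RBCS* level, *RBCS1A* took between 68.3 and 73.6% in the 6 libraries, *RBCS3B* between 17.7 and 20.01%, *RBCS2B* between 5.47 and 9.89% and *RBCS1B* between 2.00 and 2.63%. Exon lengths come from the TAIR10.1 models, which give *RBCS1B* 1894 bases against 935 for *RBCS2B*. Without division by length the mean shares of *RBCS1B* and *RBCS2B* over the 6 libraries are 3.25 and 5.69% instead of 2.203 and 7.80%. The ratio of *RBCS1B* to *RBCS2B* counts was 0.676 and 0.678 in *sep1 sep2*, 0.473 and 0.409 in the pair labelled *sep1 sep2 sep3* and 0.546 and 0.764 in the *SEP3* lines. It was lower in both libraries of the pair labelled *sep1 sep2 sep3* than in the other 4, and the *SEP3* lines lay on either side of *sep1 sep2*. The exact permutation test, two-sided, gave p = 0.333 for the pair labelled *sep1 sep2 sep3* against either other genotype, the smallest value that 2 libraries against 2 allow, so the test cannot reach 0.05 in this design. For *RBCS1A* relative to *RBCS3B*, the ratio of counts ranged from 3.10 to 3.63 with the genotypes overlapping.

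**Figure D2:**
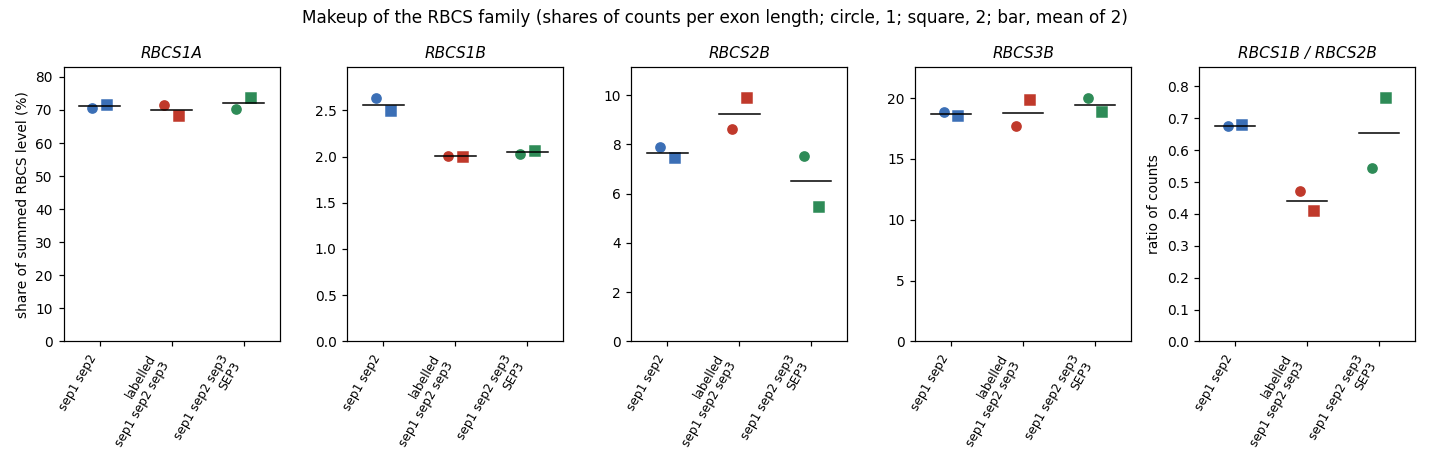
Share of each *RBCS* gene in the summed level of the family (percent of counts per exon length, first 4 panels) and ratio of *RBCS1B* to *RBCS2B* counts (last panel) in each library, by genotype (circles, replicate or line 1; squares, replicate or line 2; bars, mean of 2). *RBCS1A* holds 68.3 to 73.6% in all libraries, and the ratio is lowest, 0.473 and 0.409, in the pair labelled *sep1 sep2 sep3*.

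*RCA* (chr2:16570746-16573692, minus strand) followed the same order. Its CPM was 1792 and 1697 in *sep1 sep2*, 2025 and 2731 in the pair labelled *sep1 sep2 sep3* and 1429.6 and 1169 in the *SEP3* lines. The 3 genotypes did not overlap, and replicate 2 labelled *sep1 sep2 sep3* was 1.35 times replicate 1. The level in the *SEP3* lines fell to 0.546 of that in the pair labelled *sep1 sep2 sep3* (log2 fold change -0.87, SE 0.15, FDR 0.00103). The pair labelled *sep1 sep2 sep3* had 1.36 times the *sep1 sep2* level, which did not pass the FDR threshold (log2 fold change 0.45, SE 0.15, FDR 0.0536) but passed it without replicate 1 of that genotype, at an FDR of 0.0202 from edgeR's test.

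Phosphoribulokinase and glyceraldehyde-3-phosphate dehydrogenase bind CP12 in an inactive complex in the dark. *PRK* (chr1:11532199-11534639, plus strand) had 381 and 345 CPM in *sep1 sep2*, 386 and 475 in the pair labelled *sep1 sep2 sep3* and 283 and 246 in the *SEP3* lines. *GAPB* (chr1:16127353-16129895, plus strand), the subunit with the regulatory tail, had 516 and 463, 535 and 642 and 371 and 330.4 CPM in the same order of genotypes. For both genes the genotypes did not overlap, with the *SEP3* lines lowest. *GAPA* (chr3:9794862-9797045, plus strand) had 961 and 891, 902 and 1205 and 740.0 and 676 CPM, and here replicate 1 labelled *sep1 sep2 sep3* lay between the *sep1 sep2* libraries. *PRK*, *GAPB* and *GAPA* fell to 0.615, 0.596 and 0.672 of the level in the pair labelled *sep1 sep2 sep3*, with log2 fold changes of -0.70 (SE 0.13), -0.75 (SE 0.12) and -0.57 (SE 0.14) and FDR values of 0.00163, 8.13e-04 and 0.0108 from edgeR's quasi-likelihood test. The fall of *GAPA* was the smallest of the 10. The ratio of *GAPA* to *GAPB* counts was 1.86 and 1.93 in *sep1 sep2*, 1.69 and 1.88 in the pair labelled *sep1 sep2 sep3* and 2.00 and 2.04 in the *SEP3* lines, where it was highest. The exact permutation test, two-sided, gave p = 0.333 for the lines against either other genotype, the smallest value this design allows.

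The bisphosphatases commit carbon to the rebuilding of the acceptor. *SBPASE* (chr3:20709294-20711640, plus strand) had 320.1 and 312 CPM in *sep1 sep2*, 395 and 484 in the pair labelled *sep1 sep2 sep3* and 269 and 244 in the *SEP3* lines, without overlap between genotypes. It was the one member called higher by edgeR's test in the pair labelled *sep1 sep2 sep3*, at 1.39 times the *sep1 sep2* level (log2 fold change 0.48, SE 0.12, FDR 0.0132), while DESeq2 also called *RCA*. This call held in 11 of 14 alternative settings. It was lost with the replicate number as a block, where the FDR was 0.0503, without replicate 2 of *sep1 sep2*, where it was 0.0852, and without replicate 2 labelled *sep1 sep2 sep3*, where it was 0.233. In the *SEP3* lines it fell to 0.583 of the level in the pair labelled *sep1 sep2 sep3* (log2 fold change -0.78, SE 0.12, FDR 4.45e-04). *CFBP1* (chr3:20016837-20018822, plus strand), the least abundant member, had 207 and 197 CPM in *sep1 sep2*, 229 and 267 in the pair labelled *sep1 sep2 sep3* and 144 and 124 in the *SEP3* lines. Each genotype stood apart, and its fall to 0.540 in the *SEP3* lines had the lowest FDR of the 10 (log2 fold change -0.89, SE 0.12, FDR 1.11e-04). The annotated *CFBP1* gene shares 167 bases with a neighbouring gene on the other strand, and the counting is not stated to use strand, so reads from those bases cannot be told apart.

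Per kilobase of exon, the mean levels over the 6 libraries ran from 4740.4 CPM for *RBCS1A* through 1269 for *RBCS3B*, 860.2 for *RCA*, 539.6 for *RBCS2B*, 511 for *GAPA*, 257 for *GAPB*, 193 for *SBPASE*, 187 for *PRK* and 148 for *RBCS1B* to 118 for *CFBP1*. Some neighbours in this order did not differ beyond their spread. In *sep1 sep2*, *RBCS2B* had 543 ± 35.6 and *GAPA* 529 ± 28.3 CPM per kilobase (SD, n = 2), and *PRK*, *RBCS1B* and *SBPASE* had 192 ± 13.4, 182 ± 11.7 and 181 ± 3.14. In the *SEP3* lines, *RBCS2B* was below *GAPA* on average, 326 ± 115 against 404 ± 26.0, but line 1 of the former exceeded line 2 of the latter.

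The first comparison asks what changes when *SEP3* is lost in the *sep1 sep2* background. Of the 10 genes, 9 had a positive log2 fold change in the pair labelled *sep1 sep2 sep3*, from 0.16 for *RBCS1A* to 0.48 for *SBPASE*, with a median over the 10 of 0.26 against -0.03 over all genes tested. By FDR 1 of 10 was higher (5.74% of all genes) and 0 were lower (10.0% of all genes). DE members numbered 0, against 8.24% of all genes, although 5 had an unadjusted p under 0.05 in edgeR's quasi-likelihood test, and the count was also 0 with DESeq2. Both libraries were above both *sep1 sep2* libraries for 7 genes (25.2% of all genes) and below for 1, *RBCS1B* (29.8% of all genes). Among genes averaging 100 CPM or more, as all 10 do, both libraries were above for 40.8% and below for 20.07%. By FDR 11.99% of those genes were higher and 6.02% lower, so the 1 of 10 called higher did not exceed that share. The differences were larger in replicate 2: the median log2 ratio of the 10 genes to the *sep1 sep2* mean was 0.11 in replicate 1 and 0.39 in replicate 2.

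The second comparison asks what expression of *SEP3* in the triple mutant does. All 10 genes fell in the *SEP3* lines against the pair labelled *sep1 sep2 sep3*, with log2 fold changes from -0.57 for *GAPA* to -1.20 for *RBCS2B* and a median of -0.72, against 0.02 over all genes tested. By FDR 5.17% of all genes were lower and 7.30% higher, and among the 2093 genes averaging 100 CPM or more, which each of the 10 exceeded in every library, 16.0% were lower and 2.72% higher. The lines lay below both libraries of the pair labelled *sep1 sep2 sep3* for 10 of 10 genes, as they did for 23.5% of all genes. The share was 39.3% among the genes averaging 100 CPM or more. DE in the lower direction was 1 of 10, *RBCS2B*, against 0.550% of all genes. All 10 calls held under DESeq2, other normalizations, the filter on low counts and the replicate block. They numbered 8 without replicate 2 labelled *sep1 sep2 sep3* and 8 without line 2, and the genes lost were *RBCS3B* (FDR 0.160 and 0.120 from edgeR's test) and *GAPA* (FDR 0.233 and 0.113).

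**Figure D3:**
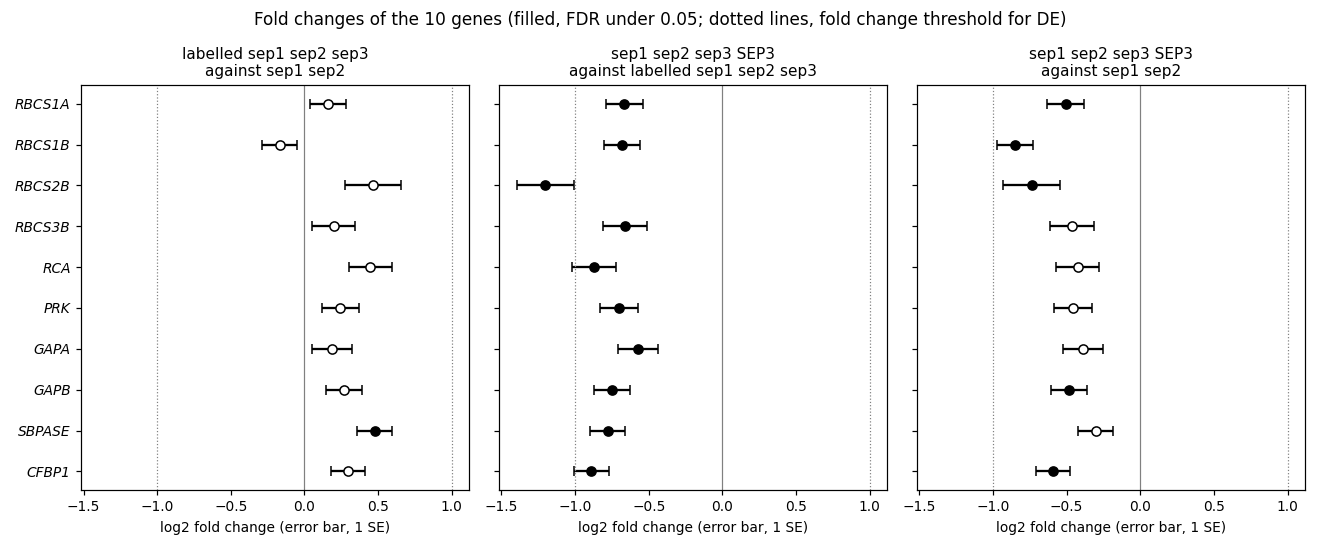
Log2 fold change of each of the 10 genes (points; error bars, 1 SE; filled, FDR under 0.05 from edgeR's quasi-likelihood test; dotted lines, the fold change threshold for DE) in the 3 comparisons. In the middle panel all 10 points are filled and lie between -0.57 and -1.20, while the left panel has 1 filled point and the right panel 5.

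Setting the *SEP3* lines beside *sep1 sep2*, both of which have *SEP3*, shows that the levels did not return to those of *sep1 sep2* but lay below them. The lines were lower than both *sep1 sep2* libraries for 10 of 10 genes, as they were for 23.1% of all genes, with log2 fold changes from -0.30 for *SBPASE* to -0.85 for *RBCS1B* and a median of -0.47 against -0.01 over all genes tested. By FDR 5 were lower (2.73% of all genes) and 0 higher (1.39% of all genes), namely *RBCS1A*, *RBCS1B*, *RBCS2B*, *GAPB* and *CFBP1*, while all 10 had an unadjusted p under 0.05. Among the genes averaging 100 CPM or more, 7.60% were lower and 2.29% higher by FDR in this comparison. For 31.8% of those genes the lines were lower than both *sep1 sep2* libraries. DE members numbered 0 in edgeR's test, against 1.50% of all genes, and 0 with DESeq2. The number called by FDR was 1 with the edgeR filter on low counts or with the replicate number as a block, and from 1 to 3 with any 1 of the 6 libraries left out. The 3 comparisons share libraries, so they are not independent of each other.

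The spread within genotypes moved these genes together. Replicate 2 labelled *sep1 sep2 sep3* was above replicate 1 for all 10, by 1.11 times for *RBCS1A* to 1.35 times for *RCA*, and *SEP3* line 2 was below line 1 for all 10, at 0.601 of it for *RBCS2B* to 0.913 for *GAPA*. The *sep1 sep2* libraries were closer, with replicate 2 at 0.896 to 0.980 of replicate 1. In summed share of all counts on genes, the 10 genes took 1.34 and 1.26% in *sep1 sep2*, 1.38 and 1.62% in the pair labelled *sep1 sep2 sep3* and 1.06 and 0.884% in the *SEP3* lines, so the order of genotypes is the same before TMM normalization.

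The windows of 250 bases before the annotated start of each gene (TAIR10.1) were searched on both strands for the G-box CACGTG and the I-box GATAAG, motifs known from light-responsive *RBCS* promoters, and for the CArG box that MADS proteins bind. A G-box was found in 3 of 10 windows, those of *RBCS2B*, *PRK* and *CFBP1*, against 6.46% of 27561 windows of all genes. An I-box was found in 3 of 10, those of *RBCS2B*, *RCA* and *CFBP1*, against 12.3%, and both motifs in *RBCS2B* and *CFBP1*, 2 of 10 against 0.918%. A CArG box was found in 0 of 10, against 2.52%. With so low a share among all windows, 0 of 10 is a likely result for any 10 genes. The windows are also far shorter than the region around each gene in which the paper looked for binding. The paper also describes non-canonical CArG boxes, which this search may have missed. Whether MADS proteins bind near these genes was therefore not tested here. The paper's genome-wide binding data for SEP3 and SEP3–AG complexes, and the ChIP-seq it compared them with, were not used. The windows of *RBCS2B* (chr5:15382072-15382321, minus strand), *RCA* (chr2:16573693-16573942, minus strand) and *CFBP1* (chr3:20016587-20016836, plus strand) are shown because these genes had the largest falls in the *SEP3* lines against the pair labelled *sep1 sep2 sep3*, with capitals at the G-box and at I-boxes read on either strand:
*RBCS2B*: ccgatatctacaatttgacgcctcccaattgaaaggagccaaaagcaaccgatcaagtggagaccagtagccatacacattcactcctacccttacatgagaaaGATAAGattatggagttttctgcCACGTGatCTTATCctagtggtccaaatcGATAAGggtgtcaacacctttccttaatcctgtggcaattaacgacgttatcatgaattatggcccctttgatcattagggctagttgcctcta
*RCA*: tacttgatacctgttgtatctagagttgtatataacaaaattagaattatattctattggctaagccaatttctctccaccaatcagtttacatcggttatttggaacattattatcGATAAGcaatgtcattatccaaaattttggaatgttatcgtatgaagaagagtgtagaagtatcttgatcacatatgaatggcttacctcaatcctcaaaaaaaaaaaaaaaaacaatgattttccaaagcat
*CFBP1*: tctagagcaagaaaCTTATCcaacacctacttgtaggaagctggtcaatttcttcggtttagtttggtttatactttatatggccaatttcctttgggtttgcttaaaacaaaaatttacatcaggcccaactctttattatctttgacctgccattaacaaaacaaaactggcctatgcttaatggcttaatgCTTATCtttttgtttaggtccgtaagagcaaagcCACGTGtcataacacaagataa
In *RBCS2B* the G-box begins 123 bases before the start, between I-boxes at 146, 115 and 94 bases, whereas in *CFBP1* it begins at 22 bases with I-boxes at 236 and 56. That the 3 genes with an I-box in the window are also those with the largest falls was noticed after the values were known and was not tested. The window depends on the annotated start, which for *RBCS1A* lies 418 bases before the first coding base with transcript starts spread over 243 bases. That distance was 469 bases for *PRK*, 364 for *GAPA*, 347 for *RCA*, 346 for *SBPASE* and 336 for *RBCS3B*. It was 199 for *GAPB*, 165 for *RBCS1B*, 114 for *CFBP1* and 93 for *RBCS2B*, so the 2 genes with both motifs had the shortest. Motifs nearer to the coding sequence fall outside the window.

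The counts by FDR for the lists below stand beside these shares of all genes. In the first comparison 5.74% were higher and 10.0% lower. The shares were 7.30% and 5.17% in the second and 1.39% and 2.73% in the third. Among the other nuclear genes of the cycle, 15 of 16 listed genes could be tested, *RBCL* being listed at 0. In the *SEP3* lines against the pair labelled *sep1 sep2 sep3*, 10 of 15 fell and 0 rose by FDR, with a median log2 fold change of -0.47. The largest fall was that of *CP12-2*, a regulator that binds PRK and GAPDH, which had 70.3 and 63.5 CPM in *sep1 sep2*, 53.1 and 54.9 in the pair labelled *sep1 sep2 sep3* and 24.3 and 22.3 in the *SEP3* lines and was DE (log2 fold change -1.21, SE 0.11, FDR 4.37e-06). It was also DE relative to *sep1 sep2* (log2 fold change -1.52, SE 0.12, FDR 8.13e-06). The plastid aldolases *FBA1* and *FBA2* fell by 0.82 and 0.72 on the log2 scale (FDR 0.00213 and 0.00126 from edgeR's test) and the ribose phosphate isomerase *RPI3* by 0.70 (FDR 6.51e-04). *FBA1* was the one of the 15 called higher by edgeR's test in the pair labelled *sep1 sep2 sep3* than in *sep1 sep2* (log2 fold change 0.62, SE 0.15, FDR 0.0112), against 3 of 15 with DESeq2 and 2 of 15 without replicate 1 labelled *sep1 sep2 sep3*, and the low-level regulator *CP12-3*, named after its values were seen, was lower (log2 fold change -1.11, SE 0.31, FDR 0.0230). Neither was called without either *sep1 sep2* library or without replicate 2 labelled *sep1 sep2 sep3*, and *CP12-3* also not without replicate 1 of that label, with filterByExpr or with the replicate block. Of the 15 genes, the number that fell in the second comparison was 3 without replicate 2 labelled *sep1 sep2 sep3* and 5 without line 2.

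The chaperones and assembly factors of Rubisco fell in part. Of 10 listed genes, 5 fell in the *SEP3* lines against the pair labelled *sep1 sep2 sep3*, with a median log2 fold change of -0.42 over the 10. Among them were *RAF2*, which acts on the assembling holoenzyme, by 0.66 on the log2 scale, the folding factor *BSD2* by 0.51 and the chaperonin subunit *CPN60B1* by 0.52 (FDR 7.10e-04, 0.00334 and 0.00417 from edgeR's test). The number was 3 without replicate 2 labelled *sep1 sep2 sep3*. Of the thioredoxin system, which reduces and thereby activates cycle enzymes in light, 1 of 6 genes fell by FDR. This was *NTRC*, the NADPH-dependent thioredoxin reductase (log2 fold change -0.48, FDR 0.00670). It did not pass without replicate 2 labelled *sep1 sep2 sep3* or without line 2. All 6 genes had a negative log2 fold change, with a median of -0.28. *NTRC* was also higher in the pair labelled *sep1 sep2 sep3* than in *sep1 sep2* (log2 fold change 0.42, SE 0.11, FDR 0.0136), but not without replicate 2 of either genotype. *FTRA2*, a subunit of the ferredoxin-thioredoxin reductase, was lower there (log2 fold change -0.50, SE 0.16, FDR 0.0409), and 0 of 6 genes were lower under 10 of the 14 alternatives, DESeq2 among them. In the same comparison *RBCX1*, a Rubisco chaperone, had 13.9 and 11.1 CPM in *sep1 sep2*, 4.55 and 0.339 in the pair labelled *sep1 sep2 sep3* and 2.33 and 4.39 in the *SEP3* lines and was lower (log2 fold change -2.39, FDR 0.0173), with its libraries far apart within the genotype, and this call was lost without either *sep1 sep2* library and with filterByExpr.

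Photorespiration recycles the product of Rubisco's oxygenase reaction. Of its 12 listed genes, 10 fell and 0 rose in the *SEP3* lines against the pair labelled *sep1 sep2 sep3*, with a median of -0.71. The hydroxypyruvate reductase *HPR1* and the glycolate oxidase *GOX1* fell most, by 0.92 and 0.90 on the log2 scale (FDR 2.10e-04 and 3.10e-04 from edgeR's test), ahead of *GLDP1* and *SHM1* of the glycine decarboxylase and serine hydroxymethyltransferase step, by 0.75 and 0.73 (FDR 0.00724 and 0.00161). In the pair labelled *sep1 sep2 sep3*, 5 of 12 were higher than in *sep1 sep2* by FDR (*GLDP1*, *GLDP2*, *GLDT*, *GGT1* and *HPR1*), a number that was 0 without replicate 2 of that genotype, 1 without replicate 2 of *sep1 sep2* and 3 without its replicate 1 or without either *SEP3* line. It was 2 with filterByExpr, 2 with the replicate block, 3 with library size alone, the likelihood ratio test or only the compared libraries, and 7 with DESeq2 or without replicate 1 labelled *sep1 sep2 sep3*. In the third comparison, 6 of the 15 other cycle genes, 5 of the 10 assembly genes and 5 of these 12 genes were lower in the *SEP3* lines than in *sep1 sep2*, numbers that came to between 2 and 5, 1 and 4, and 1 and 5 with 1 of the 6 libraries left out, and to 3, 1 and 2 with the replicate block and 4, 3 and 2 with filterByExpr. The 2 major β-carbonic anhydrase genes, *BCA1* of the chloroplast and *BCA2* of the cytosol, both fell and were DE. *BCA1* had 572 and 469 CPM in *sep1 sep2*, 529.6 and 766 in the pair labelled *sep1 sep2 sep3* and 349 and 229.6 in the *SEP3* lines (log2 fold change -1.16, SE 0.19, FDR 8.45e-04). *BCA2* had 63.3 and 38.8 CPM in *sep1 sep2*, 40.3 and 66.2 in the pair labelled *sep1 sep2 sep3* and 16.9 and 12.5 in the *SEP3* lines (log2 fold change -1.85, SE 0.24, FDR 9.69e-05), a larger fall than that of any of the 10 genes.

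Counterparts of the cycle enzymes in the cytosol or in glycolysis were listed as well. Of 9 genes, 2 fell by FDR in the *SEP3* lines against the pair labelled *sep1 sep2 sep3*, and the median was -0.02. That is 22.2% of the list, above the 5.17% of all genes and the 16.0% of genes averaging 100 CPM or more that were lower. The cytosolic glyceraldehyde-3-phosphate dehydrogenase *GAPC1* had 679 and 758 CPM in *sep1 sep2*, 688 and 828 in the pair labelled *sep1 sep2 sep3* and 797 and 732 in the *SEP3* lines, with overlapping genotypes (log2 fold change 0.01, SE 0.12). The genes that fell were *NP-GAPDH*, the non-phosphorylating dehydrogenase, and *CYFBP*, the cytosolic fructose bisphosphatase of sucrose synthesis, by 0.48 and 0.39 on the log2 scale (FDR 0.0183 and 0.0257 from edgeR's test), and 0 of 9 were called without replicate 2 labelled *sep1 sep2 sep3* or without line 1, and 1 of 9 without the other library of either genotype, with library size alone or with the replicate block. The difference between this list and the 10 genes was not tested.

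**Figure D4:**
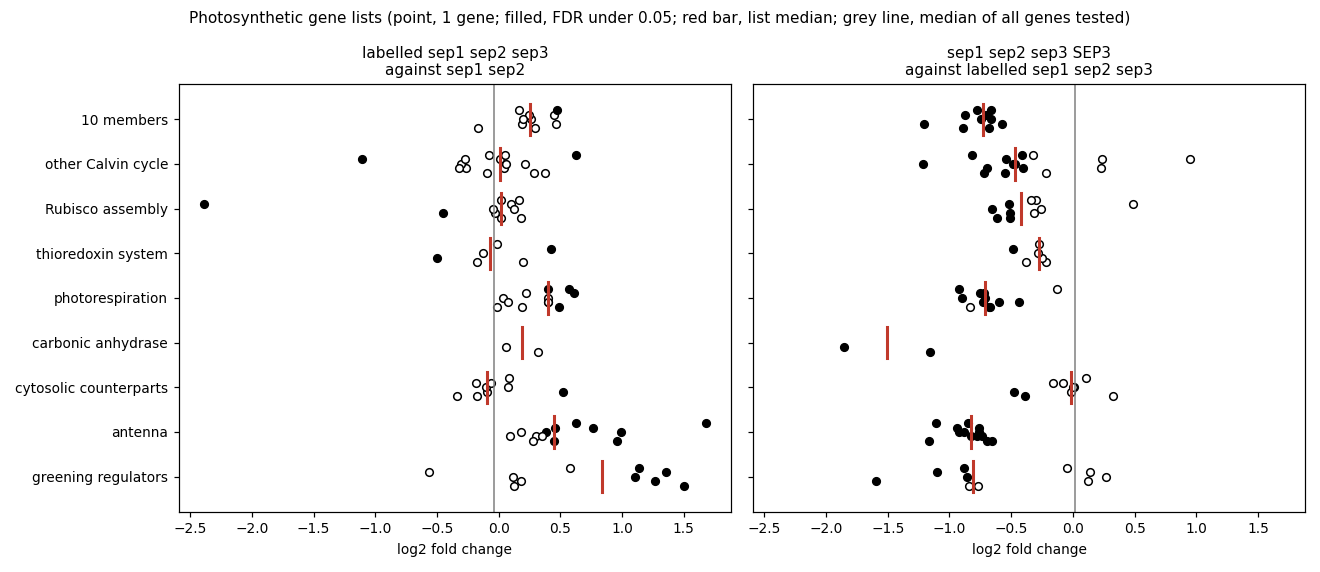
Log2 fold changes of the 10 genes and of 8 related gene lists (points, 1 gene each; filled, FDR under 0.05 from edgeR's quasi-likelihood test; red bars, list medians; grey lines, median of all genes tested) in the pair labelled *sep1 sep2 sep3* against *sep1 sep2* (left) and in the *SEP3* lines against the pair labelled *sep1 sep2 sep3* (right). On the right the medians are -0.72 for the 10 genes, -0.71 for photorespiration and -0.82 for the antenna, against -0.02 for the cytosolic counterparts.

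The light-harvesting antenna genes, which mark green cells, moved with the 10 genes in the first and second comparisons and only in part in the third. Their summed CPM was 20263 and 20520.4 in *sep1 sep2*, 26879 and 29953 in the pair labelled *sep1 sep2 sep3* and 16637 and 14904 in the *SEP3* lines, and 13 of 13 fell in the *SEP3* lines against the pair labelled *sep1 sep2 sep3* (median -0.82), whereas 8 of 13 were higher in the latter than in *sep1 sep2* (median 0.45), or 5 of 13 without replicate 2 of *sep1 sep2* or with the replicate block and 3 of 13 without replicate 2 labelled *sep1 sep2 sep3*. In the *SEP3* lines 3 of 13 were lower than in *sep1 sep2* (*LHCB1.3*, *LHCB6* and *LHCA2*) and *LHCB1.1* was higher (log2 fold change 0.57, SE 0.15, FDR 0.0437), with a median of -0.30. The number lower was 5 with DESeq2 and 1 without replicate 2 of *sep1 sep2* or without line 2, and *LHCB1.1* was not called with filterByExpr, with the replicate block or without any 1 of the 4 libraries compared. *LHCB1.1*, *LHCB1.2* and *LHCB1.3* lie together at chr1:10472280-10479114. How far their counts can be separated without multimapping reads was not examined. Their log2 fold changes in the first comparison were far apart, at 1.68, 0.96 and 0.09. The regulators of greening moved with the 10 genes in part. *GLK1*, a transcription factor of chloroplast development, had 61.5 and 55.6 CPM in *sep1 sep2*, 132 and 149.98 in the pair labelled *sep1 sep2 sep3* and 53.8 and 39.0 in the *SEP3* lines. It rose in the pair labelled *sep1 sep2 sep3* (log2 fold change 1.27, SE 0.14, FDR 1.96e-05) and fell in the *SEP3* lines (log2 fold change -1.60, SE 0.14, FDR 2.21e-06). *GLK2*, *GNC* and *PIF5* passed in the same directions, with log2 fold changes of 1.101, 1.36 and 1.14 in the first comparison and -0.86, -1.099 and -0.88 in the second (FDR at most 0.00758 from edgeR's test), and *HYH* was higher in the first. In the second comparison 4 of 10 regulators were called, or 1 of 10 without replicate 2 labelled *sep1 sep2 sep3* and 2 of 10 without line 2.

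Other genes that mark time of day, sugar status or tissue also differed between the libraries. Of 10 clock genes, 4 were higher (*CCA1*, *LHY*, *RVE8* and *PRR9*) and 4 lower (*TOC1*, *GI*, *ELF4* and *LUX*) in the pair labelled *sep1 sep2 sep3* than in *sep1 sep2*, or 4 and 2 with DESeq2. The morning gene *LHY* had 6.41 and 7.41 CPM in *sep1 sep2*, 17.5 and 107 in the pair labelled *sep1 sep2 sep3* and 38.6 and 24.4 in the *SEP3* lines and the evening gene *ELF4* 40.8 and 37.6 CPM in *sep1 sep2*, 7.19 and 0.203 in the pair labelled *sep1 sep2 sep3* and 1.78 and 5.81 in the *SEP3* lines, so the 2 libraries of the pair labelled *sep1 sep2 sep3* also differed from each other. Between the *SEP3* lines and the pair labelled *sep1 sep2 sep3*, where the 10 genes fell, 0 of 10 clock genes passed in edgeR's test and 0 with DESeq2, with 2 and 1 at an unadjusted p under 0.05. Without replicate 1 labelled *sep1 sep2 sep3*, however, 8 of 10 did, 4 higher and 4 lower, and 1 was lower with the counts halved or without line 1. Relative to *sep1 sep2*, 4 were higher and 3 lower in the *SEP3* lines, or 0 and 0 with filterByExpr, 2 and 0 with the replicate block, 1 and 0 with DESeq2 or without either *sep1 sep2* library or line 1, and 2 and 3 without line 2. Of 5 genes induced in darkness or sugar starvation, 2 were lower in the pair labelled *sep1 sep2 sep3* than in *sep1 sep2*, *ASN1* and *DIN10*, and 3 were higher in the *SEP3* lines than in that pair, *DIN10*, *ASN1* and *BCAT2*, with a summed CPM of 419.9 and 351 in *sep1 sep2*, 129.8 and 138 in the pair labelled *sep1 sep2 sep3* and 229 and 583 in the *SEP3* lines. Without line 1 these numbers were 4 and 5, without line 2 they were 3 and 2, and without replicate 2 labelled *sep1 sep2 sep3* they were 1 and 1. The library with the highest sum, *SEP3* line 2, is the one in which all 10 genes were lowest. In line 1, however, the sum was 229, below both *sep1 sep2* libraries, and all 10 genes were below both *sep1 sep2* libraries there too. A link between the sum and the 10 genes was not tested.

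The floral organs differed as well. All 12 tapetum markers were lower in the pair labelled *sep1 sep2 sep3* than in *sep1 sep2* and higher in the *SEP3* lines than in the pair labelled *sep1 sep2 sep3*, and their summed CPM was 2616 and 3093 in *sep1 sep2*, 250.5 and 176 in the pair labelled *sep1 sep2 sep3* and 2849.7 and 1563 in the *SEP3* lines. The sum of 10 carpel and ovule markers was 129 and 133 in *sep1 sep2*, 69.9 and 58.3 in the pair labelled *sep1 sep2 sep3* and 126 and 133 in the *SEP3* lines, with 8 of 10 lower and 1 higher in the first comparison and 7 of 10 higher in the second. The ovule genes *INO* and *STK* were at 0 counts in replicate 1 labelled *sep1 sep2 sep3*, and *INO* also in replicate 2 and in line 2. The part of harvest time, sugar status and organ makeup in the levels of the 10 genes was not tested.

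**Figure D5:**
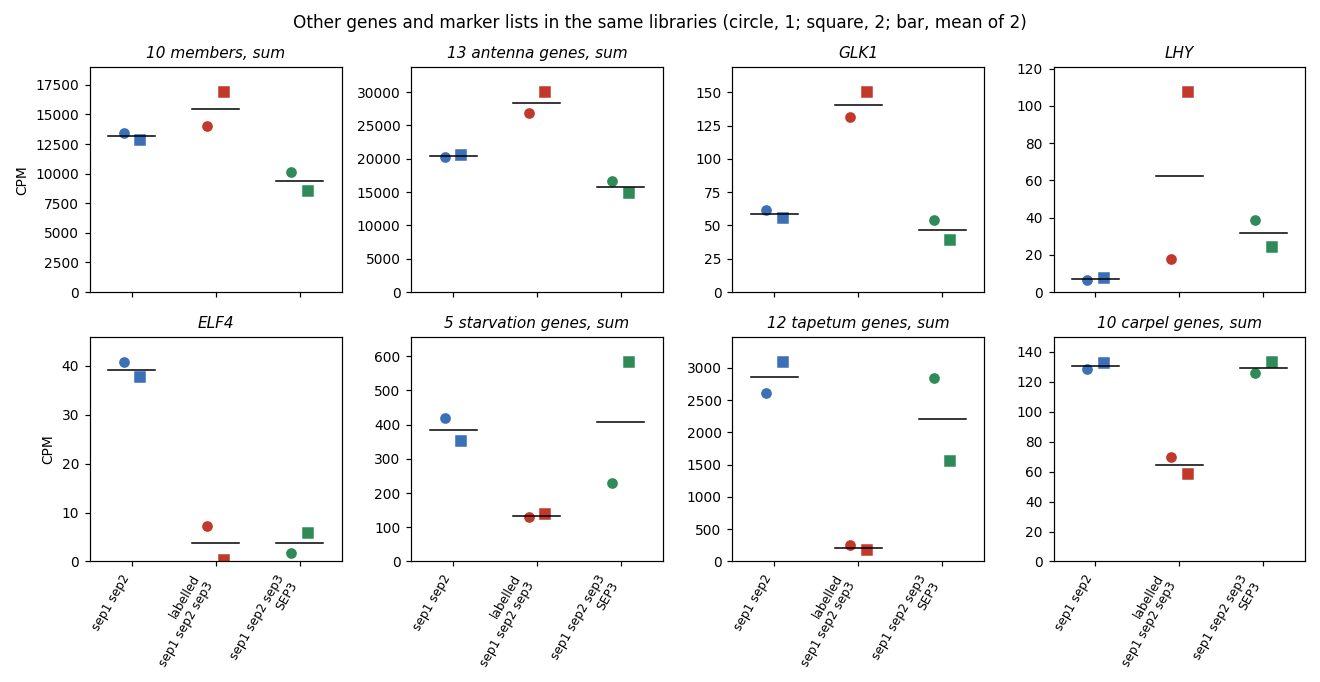
Summed CPM of the 10 genes, of the antenna, starvation, tapetum and carpel lists, and CPM of *GLK1*, *LHY* and *ELF4* in each library (vertical axes from 0; circles, replicate or line 1; squares, replicate or line 2; bars, mean of 2), by genotype. The 10 genes are highest in the pair labelled *sep1 sep2 sep3* and lowest in the *SEP3* lines, where *LHY* stands at 38.6 and 24.4 CPM, between both libraries of the pair labelled *sep1 sep2 sep3*.

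The genes whose profile over the 6 libraries came closest to the mean of the 10 were looked for among 15448 other genes at a mean of 5 CPM or more, by the root mean square difference of log2 CPM centred on each gene's own mean. The closest was *LrgB* (AT1G32080), whose product is a glycolate and glycerate transporter of the chloroplast envelope, with 129.6 and 122 CPM in *sep1 sep2*, 139.7 and 170.0 in the pair labelled *sep1 sep2 sep3* and 99.1 and 81.9 in the *SEP3* lines and a difference of 0.0233. It was followed by *PSAN* of photosystem I (0.0389), AT2G40435 (0.0432) and the photosystem II genes *PSBQ-2* (0.0463) and *PSBO2* (0.0480). Among the members themselves the difference from their common mean was smallest for *GAPB* (0.0420) and *PRK* (0.0426) and largest for *RBCS2B* (0.233) and *RBCS1B* (0.183).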

How the data were processed

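The authors sequenced poly(A)-selected RNA as read pairs of 150 bases, mapped it to TAIR10 with STAR without multimapping reads, counted reads per gene with featureCounts at default parameters and deposited whole-number counts for 33610 genes in each of 6 libraries. Versions are not given in the sources used here. Of the counts from 1 to 20, even numbers made up 85.9 to 88.3% per library, so each pair appears to have been counted as 2. The authors also deposited 2 comparison tables with log2 fold changes, mean log2 CPM, an F score and p-values adjusted as FDR, which were not used.

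Totals ran from 24000063 to 31263376 counts with a median of 24884508.5, and the 10 genes had between 3076 and 221296 counts per library. The 25458 genes with a count in any library were fitted together with edgeR 4.0.16 (limma 3.58.1, R 4.3.3; TMM, prior count 0.125, a mean per genotype) and tested with the quasi-likelihood test. A run of the test on simulated counts had a smaller spread between libraries than these data, so it does not show how the test performs here. Groups follow the sample labels. SE values follow from each log2 fold change and its test statistic. Alternatives were DESeq2 1.42.0, other normalizations, the filterByExpr filter, the likelihood ratio test, counts halved, a replicate block, only the compared libraries, and each library left out. Gene models, coding sequences and the windows before the genes come from RefSeq's TAIR10.1 assembly. All 10 genes are named. From the lists, genes with an FDR under 0.05 and a mean of at least 5 CPM are named, up to 4 per list and direction, or all where a count is 5 or fewer, as well as the 5 genes nearest in profile. Values of 2 assembly genes are not reported here. *GAPC1* was chosen after its values were seen. The 10 genes, the lists and the rules were chosen with earlier results of these data known. *PGLP1* of the photorespiration list has a near-identical copy, so its counts of uniquely mapped reads are uncertain.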

Additional observations from a re-analysis of the deposited data

How the results depend on the processing

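Over the 10 genes, 3 comparisons and 14 alternatives, 420 values in all, the direction and the side of the FDR threshold stayed as reported in 373, the call was lost in 40 and gained in 5, and 2 log2 fold changes below the threshold changed sign: without replicate 2 labelled *sep1 sep2 sep3*, *RBCS3B* was at -9.74e-04 and *GAPA* at -0.0374 relative to *sep1 sep2* (up to 0.38 for both without replicate 1). For that comparison the number of genes called by FDR was 2 with DESeq2, 0 with the replicate block and 0 to 2 with 1 library left out, against 1. Against the pair labelled *sep1 sep2 sep3*, the *SEP3* lines kept 10 calls in every setting except 8 without replicate 2 or line 2, and the 1 DE gene became 0 to 3 with 1 library left out. Against *sep1 sep2*, the 5 calls became 3 with library size alone, 1 with filterByExpr, 1 with the replicate block, 2 with only the compared libraries and 1 to 3 with 1 library left out, and the 0 DE genes became 0 to 1. With filterByExpr 20716 genes were tested. Over all genes this comparison called 1050 genes by FDR, against 329 with filterByExpr and 378 with the block, and 383 DE genes, against 164 and 245. The likelihood ratio test called 2798, 2242 and 533 genes DE in the 3 comparisons, against 2098, 1601 and 383. Without division by length the mean shares were 3.25% for *RBCS1B*, 5.69% for *RBCS2B* and 20.8% for *RBCS3B*, against 2.203, 7.80 and 19.0%. The cause of these shifts was not tested.

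The labels do not say whether replicate numbers pair the samples. Deviations from the genotype means of libraries with the same number correlated at -0.0921, -0.00463 and 0.130 over 15564 genes in the 3 pairs of genotypes. With 1 difference between libraries per genotype, these values cannot exclude pairing, and the block rests on a shared number only. With 2 libraries per genotype, 1 library can decide a call, exact permutation tests cannot go below 0.333, and the counts of these genes are high enough that the spread between libraries, rather than depth, limits the precision.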
